A study of Mus musculus with 8 samples.

Results

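The immediate early and dissociation stress genes *Fos*, *Fosb*, *Jun*, *Junb*, *Egr1*, *Atf3*, *Ier2*, *Dusp1*, *Hspa1a* and *Hspa1b* were followed through single cells of the adult mouse liver. These 10 genes were chosen by name from 46517 genes in the count table, and all 10 were detected. The table held 3491 cells sequenced with Smart-seq2, a plate-based method with 1 cell per well, on 22 plates, of which 17 held male and 5 held female cells. The cells belonged to 4 classes (endothelial, epithelial, immune and mesenchymal), and each class had 1 male and 1 female pool, giving 8 samples. The female and male pools held 451 and 655 endothelial cells, 39 and 358 epithelial cells, 396 and 255 immune cells, and 339 and 998 mesenchymal cells. The mice were C57BL6/J or carried heterozygous reporters (Pdgfrb GFP, Pdgfra H2bGFP, Cspg4 dsRED, Acta2 GFP or Cldn5 GFP), and no treatment is named for them. All livers were taken without perfusion, digested with collagenase in repeated warm cycles and sorted, so every cell had passed through dissociation and there was no undissociated control. The gates differed between classes: endothelial cells were sorted by CD31, VE-Cadherin or Cldn5 GFP, cholangiocytes by EPCAM, macrophages by CD68, mesenchymal cells by the reporters or PDGFRα, and hepatocytes as unselected live cells. No plate held both sexes, and plates were not assigned to single mice, so that sex, mouse and plate cannot be told apart across the pools.

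The median cell had 228708 counts (47063 to 1128421), not counting 92 spike-in transcripts. Each class was high in its own markers, with a summed level of 3477 counts per 1000000 (CPM) for the endothelial, 8188 CPM for the immune and 7420 CPM for the mesenchymal list. The epithelial class held hepatocyte markers at 6236 CPM and cholangiocyte markers at 1249 CPM. Plates liver_704s, liver_705s, liver_707s and liver_708s stood apart, with a median spike-in share of 5.17 to 6.04% against 1.04 to 3.82% on the other plates, and they held 287 cells.

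Immediate early genes are transcribed within minutes of a stimulus, without the need for new protein, from promoters that are already open. The Fos and Jun proteins pair through leucine zippers into the AP-1 transcription factor, Atf3 is a related stress-induced factor, Egr1 is a zinc finger factor downstream of MAP kinase signalling, Ier2 is a nuclear protein induced by growth factors, and Dusp1 is a phosphatase that switches off MAP kinases. Hspa1a and Hspa1b encode near-identical inducible Hsp70 chaperones under the control of heat shock factor. The same genes are known to be switched on by enzymatic tissue dissociation, and in the living liver by injury and regeneration.

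The sequences just upstream of 6 of the members are shown with their matches to known short promoter elements. These are cyclic AMP response elements (TGACG, or TGACGTCA in full), CCAAT boxes, the TATA box (TATAAA) and heat shock elements (GAANNTTC). Whether the matches act in these cells was not tested. The sequences are RefSeq promoter sequences of mouse build GRCm38.p6, written on the strand of the gene and ending at the base before the start site, with matches in capitals. The windows are chr12:85473770-85473889 (plus strand) for *Fos*, chr8:84978749-84978868 (minus) for *Junb*, chr17:26508473-26508652 (minus) for *Dusp1*, chr1:191183334-191183453 (minus) for *Atf3*, chr17:34972157-34972406 (minus) for *Hspa1a* and chr17:34959239-34959488 (minus) for *Hspa1b*.
Fos: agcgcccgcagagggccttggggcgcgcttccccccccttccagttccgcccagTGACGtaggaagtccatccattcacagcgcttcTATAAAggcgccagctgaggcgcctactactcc
Junb: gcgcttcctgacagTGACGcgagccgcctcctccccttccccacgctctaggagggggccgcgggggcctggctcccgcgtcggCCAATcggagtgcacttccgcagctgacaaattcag
Dusp1: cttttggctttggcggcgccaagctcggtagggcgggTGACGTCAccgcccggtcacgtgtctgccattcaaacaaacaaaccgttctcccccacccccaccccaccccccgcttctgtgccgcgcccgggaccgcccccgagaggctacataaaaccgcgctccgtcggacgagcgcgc
Atf3: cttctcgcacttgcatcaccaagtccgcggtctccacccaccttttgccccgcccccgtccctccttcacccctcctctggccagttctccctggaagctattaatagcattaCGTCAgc
Hspa1a: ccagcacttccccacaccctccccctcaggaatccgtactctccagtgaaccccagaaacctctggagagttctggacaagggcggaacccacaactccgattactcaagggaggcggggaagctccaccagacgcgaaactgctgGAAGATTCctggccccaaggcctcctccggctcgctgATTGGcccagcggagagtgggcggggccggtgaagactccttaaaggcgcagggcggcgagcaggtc
Hspa1b: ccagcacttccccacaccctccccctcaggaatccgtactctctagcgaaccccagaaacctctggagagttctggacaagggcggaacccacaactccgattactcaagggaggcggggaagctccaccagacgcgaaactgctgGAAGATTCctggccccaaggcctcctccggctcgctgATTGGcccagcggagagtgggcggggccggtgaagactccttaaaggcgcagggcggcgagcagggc
In the *Atf3* line the capitals are TGACG read on the other strand, and in both *Hspa1* lines ATTGG is CCAAT read on the other strand. Over the 250 bases upstream, on either strand, TGACG was present in 5 of the 8 members with a promoter entry against 17.9% of 27025 promoters, and the full TGACGTCA in 1 (*Dusp1*) against 1.62%. GAANNTTC was present in 3 (*Jun*, *Hspa1a* and *Hspa1b*) against 6.78%, CCAAT in 4 against 34.5% and TATAAA in 1 (*Fos*) against 13.0%. The AP-1 motif TGANTCA (6.87% of promoters), the heat shock motif TTCNNGAA (7.11%) and the CArG box of serum response factor (1.40%) had no match in these windows. TGACG is contained in TGACGTCA, and the matches are descriptions of letters only. The *Hspa1a* and *Hspa1b* windows were identical at 247 of 250 bases (98.8%), and 1716 windows of 50 bases, the read length, were shared between the transcripts (58.8% of *Hspa1a* and 62.3% of *Hspa1b*). The division of reads between *Hspa1a* and *Hspa1b* is therefore uncertain, and their sum is given beside the class levels and beside the calls of *Hspa1b*.

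Over all cells and per kilobase of exon, the AP-1 gene *Fos* was the most abundant member at 589 CPM per kb. *Junb* followed at 427, *Dusp1* at 317, *Jun* at 297, *Ier2* at 289, *Egr1* at 207, *Hspa1a* at 155 and *Atf3* at 110 CPM per kb. *Fosb* (24.7 CPM per kb) and *Hspa1b* (9.09 CPM per kb) were the least abundant. *Fos* was above 0 in 82.5% of endothelial, 85.4% of epithelial, 85.6% of immune and 96.5% of mesenchymal cells, and in 67.2%, 75.7%, 72.1% and 90.5% after each cell was thinned to 50000 counts (13 shallower cells left out). There was no cell type here that should lack *Fos*, so no background share could be set beside these values.

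Counted per cell at that fixed depth, with at least 5 counts taken as expressed, 6 or more of the 8 immediate early members were expressed together in 47.8% of mesenchymal, 26.6% of epithelial, 21.9% of endothelial and 10.03% of immune cells. None of the 8 was expressed in 7.05% of mesenchymal, 18.7% of endothelial, 21.5% of immune and 33.9% of epithelial cells. On single plates, the share of mesenchymal cells with none of the 8 ran from 0 of 338 on liver_058s, which allows up to 0.888%, to 19 of 26 on liver_705s. The classes therefore differed in order, but plates of 1 class covered much of the same range.

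The AP-1 genes were compared between classes first, on the 8 pool sums. *Fos* was 2637 CPM in female and 1930 CPM in male mesenchymal cells, 2010 and 1274 CPM in epithelial, 345 and 1243 CPM in endothelial and 760 and 753 CPM in immune cells. Both mesenchymal pools lay above both endothelial and both immune pools, while epithelial and mesenchymal pools overlapped. The epithelial pools mixed 194 cholangiocytes and 203 hepatocytes in unequal shares. Of the 39 female epithelial cells, 36 were cholangiocytes of plate liver_062s. *Fos* was 2033 CPM in cholangiocytes and 87.0 CPM in hepatocytes, and *Jun* 1655 and 32.1 CPM. Epithelial pool values therefore depend on the mix of these cell types. *Fosb* was 317 and 209 CPM in mesenchymal cells (female, male), 400 and 170 CPM in epithelial, 18.3 and 153 CPM in endothelial and 35.0 and 88.5 CPM in immune cells. *Jun* was 2165 and 985 CPM in epithelial, 1322 and 1202 CPM in mesenchymal, 530 and 1136 CPM in endothelial and 366 and 552 CPM in immune cells. *Junb* was 1520 and 1392 CPM in mesenchymal, 1307 and 690 CPM in epithelial, 473 and 996 CPM in endothelial and 472 and 795 CPM in immune cells. For these AP-1 members the female endothelial pool was low and the male endothelial pool reached or neared the epithelial or mesenchymal range.

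*Atf3* was 477 and 670 CPM in epithelial cells, 351 and 250 CPM in mesenchymal, 92.0 and 208 CPM in immune and 19.7 and 156 CPM in endothelial cells. *Egr1* was 851 and 2046 CPM in mesenchymal, 1356 and 1100 CPM in epithelial, 145 and 827 CPM in endothelial and 26.8 and 264 CPM in immune cells. *Ier2* was 777 and 600 CPM in mesenchymal, 553 and 516 CPM in epithelial, 185 and 380 CPM in endothelial and 145 and 318 CPM in immune cells. The pools of epithelial and mesenchymal cells held the highest values of all 3 genes. *Dusp1* had another order, at 717 and 1620 CPM in endothelial, 1269 and 1221 CPM in mesenchymal, 602 and 757 CPM in immune and 776 and 500 CPM in epithelial cells.

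*Hspa1a* was 688 and 538 CPM in mesenchymal, 685 and 198 CPM in epithelial, 335 and 595 CPM in endothelial and 213 and 429 CPM in immune cells. *Hspa1b* reached 60.2 CPM in male endothelial cells and 10.9 CPM in female ones, 6.74 and 36.8 CPM in immune (female, male), 23.5 and 21.9 CPM in mesenchymal and 8.91 and 5.20 CPM in epithelial cells. Added together, the chaperone genes stood at 712 and 560 CPM in mesenchymal (female, male), 694 and 203 CPM in epithelial, 346 and 655 CPM in endothelial and 220 and 466 CPM in immune cells. No class lay apart from the other 3 for either chaperone gene or for the sum.

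**Figure D1:**
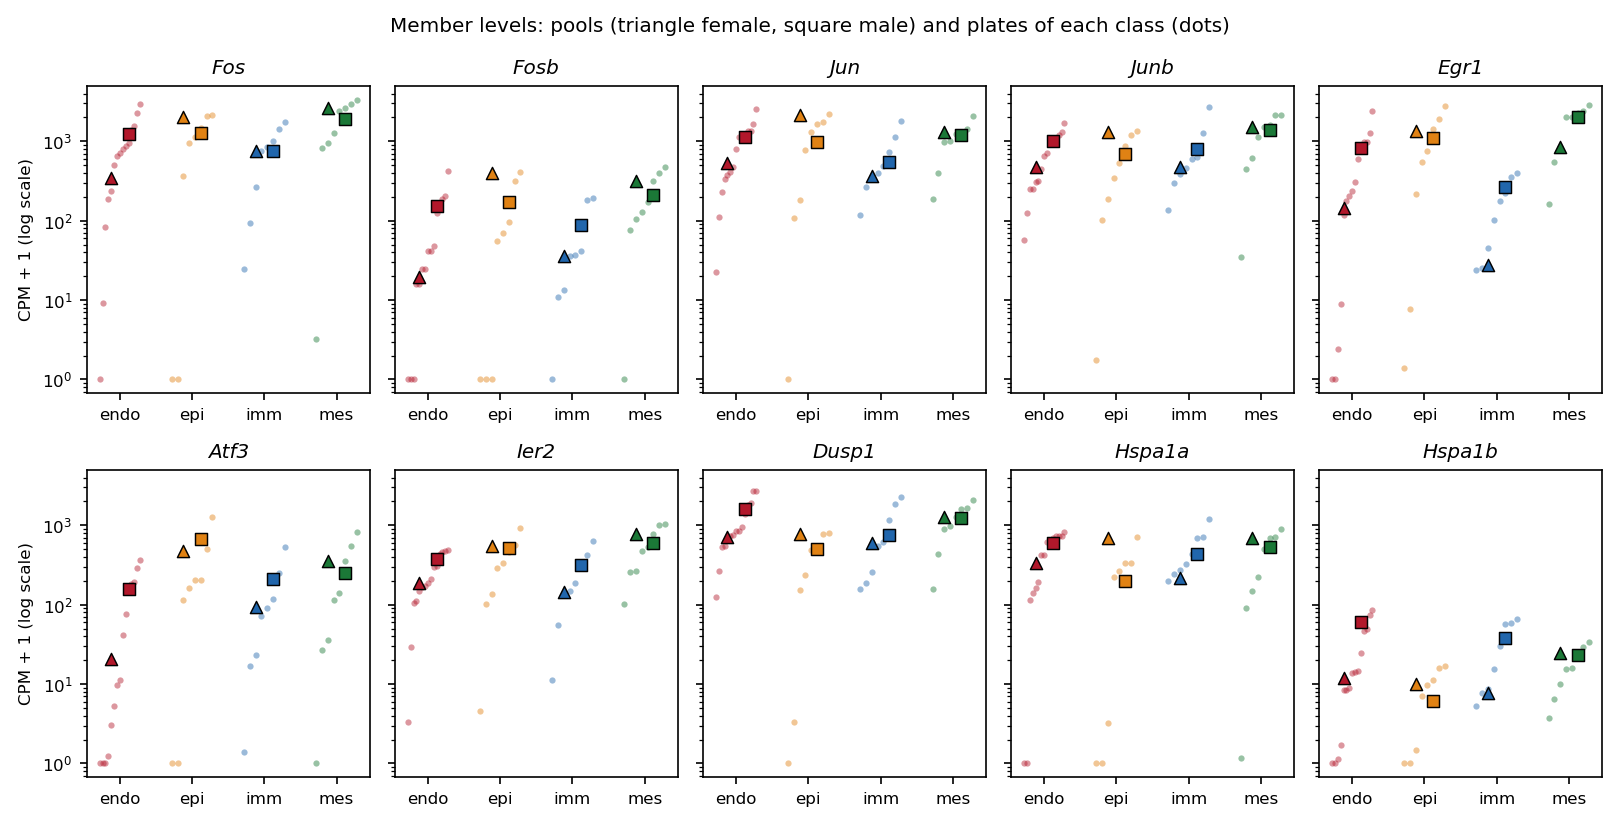
CPM + 1 on a log scale for each of the 10 members (panels) in endothelial, epithelial, immune and mesenchymal cells. Triangles are female pools, squares are male pools and dots are single plates of at least 5 cells of the class. The plates of a class spread far more widely than its pools, for mesenchymal *Fos* from 2.21 to 3315 CPM.

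Each class was then tested against the mean of the other 3 over the 8 pools with the quasi-likelihood test of edgeR, a call being an adjusted p below 0.05 with at least 1 unit of log2 fold change in either direction. No member was called in any class, 0 of 40 tests, where 12% of all genes (2886 of 24046) were called for endothelial, 15.3% for epithelial, 16.9% for immune and 14.7% for mesenchymal cells. At an unadjusted p below 0.05 there were 9 of 40, and DESeq2 called 1, *Egr1* in immune cells. The nearest to a call were *Fos* in mesenchymal cells (log2 fold change 1.24, SE 0.39, adjusted p = 0.0746), *Jun* in immune cells (-1.24, SE 0.41, adjusted p = 0.0732), *Atf3* in epithelial cells (1.81, SE 0.60, adjusted p = 0.0799) and *Ier2* in mesenchymal cells (1.11, SE 0.37, adjusted p = 0.0842). With the pool as a replicate block, 2 members were called: *Egr1* lower in immune cells (log2 fold change -3.11, adjusted p = 0.0266) and *Ier2* higher in mesenchymal cells (1.19, adjusted p = 0.0477). Without the male endothelial pool, which left that class with 1 pool and took the spread from the other classes, 6 were called (*Atf3* and *Fos* lower in endothelial, *Atf3* and *Fosb* higher in epithelial, *Fosb* and *Fos* higher in mesenchymal cells).

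Class and plate were separated on sums of class and plate with the plate as a term. *Dusp1* was then lower in epithelial cells, with a log2 fold change of -1.75 (SE 0.48, adjusted p = 0.0151), and was the only call of 40, where 15.4% of all genes were called for this class, 11% (2587 of 23491) for endothelial, 12.2% for immune and 10.4% for mesenchymal cells. The value of *Jun* in epithelial cells turned direction with the plate as a term, from a log2 fold change of 0.91 over pools to -0.17, neither being a call. On plates that held both classes, the *Dusp1* level was higher in endothelial than in epithelial cells on 4 of 4 plates and higher in mesenchymal than in epithelial cells on 5 of 5. *Egr1* was higher in epithelial than in immune cells on 3 of 3 shared plates. *Hspa1a* was higher in endothelial than in mesenchymal cells on 3 of 3 shared plates, all of them male, the same order as in the male pools (595 and 538 CPM) and the opposite of that in the female pools.

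Between the sexes, over the same 8 pools with the class as a term, 0 of 10 members were called by edgeR and 0 by DESeq2, against 0.0457% of all genes. One member, *Egr1*, had an unadjusted p below 0.05 (female minus male log2 fold change -1.80, SE 0.55, adjusted p = 0.333). The female endothelial values rested largely on plate liver_845s, which held 257 of the 451 female endothelial cells. *Fos* was 187 CPM on liver_845s against 803 CPM in endothelial cells of liver_061s and 866 CPM in those of liver_062s, also female. In matched clusters the female plates liver_061s and liver_845s had *Fos* at 661 and 67.4 CPM in cluster #e1, 887 and 527 CPM in #e2, 602 and 7.72 CPM in #e5 and 1136 and 64.3 CPM in #e6. The difference between these female plates was thus as wide as that between the pools.

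The authors had divided each class into clusters from the same transcriptomes, so cluster differences in any gene are partly built in, and 30 clusters of the multilevel setting are used here. The summed level of the 8 immediate early members ran from 169 CPM in hepatocyte cluster #p5 to 16102 CPM in #m2, the arterial smooth muscle cells. The 4 highest were #m2, #m9 (Wt1-positive fibroblasts, 12259 CPM), #m8 (portal fibroblasts, 11023 CPM) and #m4 (peribiliary fibroblasts, 10463 CPM), all mesenchymal. These sums pool plates of different level: on liver_Rb_573s, which held nearly all of #m8, its 11078 CPM lay below #m2, #m10, #m4 and #m9 (12154 to 18932 CPM). Next over all plates came the cholangiocytes #p2 (9387 CPM) and the sinusoidal endothelial cluster #e3 (8497 CPM). Below 1000 CPM lay 3 hepatocyte clusters (#p1 489, #p4 354 and #p5 169 CPM), the central vein endothelial cluster #e7 (572 CPM) and the Kupffer cell cluster #i1 (684 CPM). In #m2, 75.9% of cells expressed at least 6 of the 8 members and 0 of 237 expressed none, which allows a share of up to 1.27%. In #p5, #e7, #i1 and #p1, by contrast, 70.2%, 69.1%, 66.4% and 53.1% of cells expressed none.

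**Figure D2:**
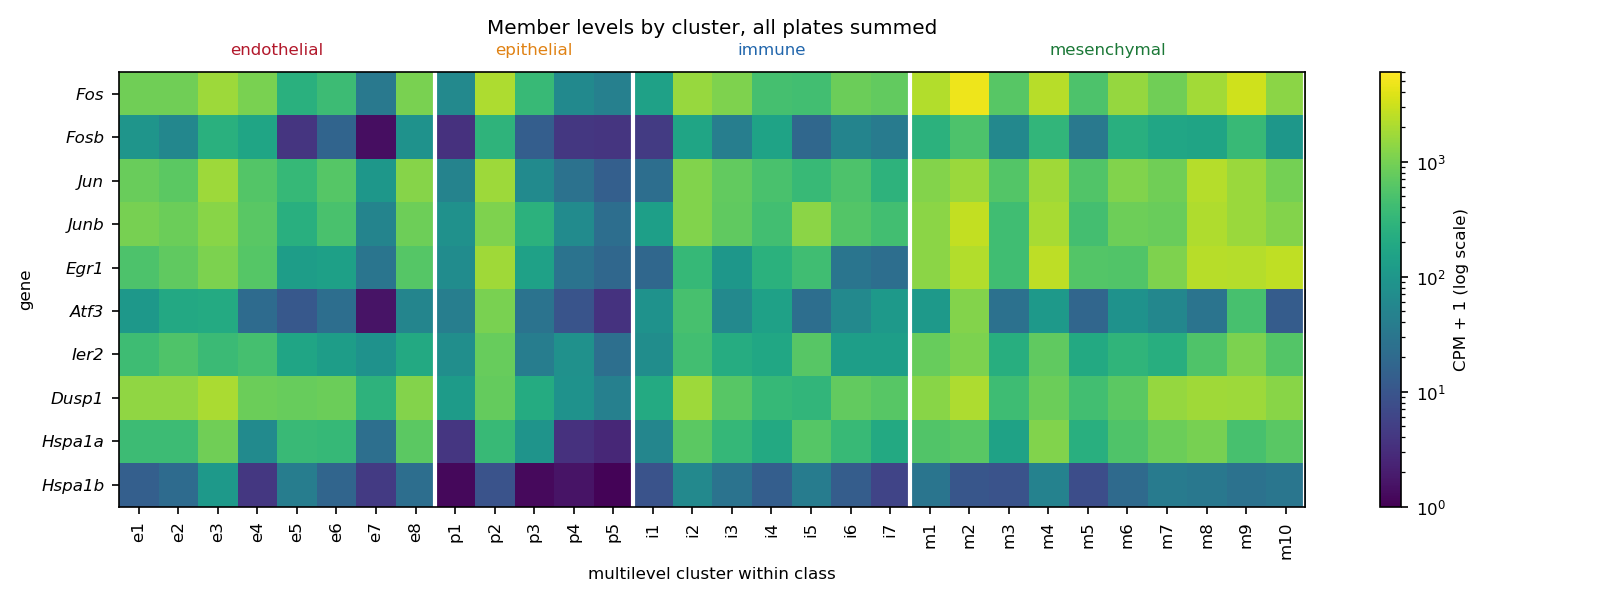
CPM + 1 (colour, log scale) of the 10 members (rows) in the 30 multilevel clusters (columns), all plates of a cluster summed. *Fos* is brightest in #m2 at 4755 CPM, and *Atf3* is bright in #m2 and #p2 at 1186 and 1026 CPM.

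These low clusters were also those with the highest spike-in share. The median spike-in share was 5.05% in #e7, 4.74% in #i1 and 5.72% in #p1, against 0.94 to 4.28% in the other clusters, and the part of RNA amount in the low levels was not tested. #p4 and #p5, with 1.36 and 2.33% spike-in, were also low in the members.

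Several clusters lay mostly on 1 plate, such as #m8 (98.1% on liver_Rb_573s), #i7 (98.2% on liver_057s) and #p5 (98.2% on liver_128s). Cluster and plate were therefore separated on sums of at least 5 cells of 1 cluster on 1 plate, within the clusters and plates that are linked by shared sums. There were 38 sums over 13 plates and 8 clusters for endothelial, 13 over 8 and 5 for epithelial, 18 over 6 and 7 for immune, and 42 over 8 and 10 for mesenchymal cells. In mesenchymal cells, all 10 members differed between clusters with the plate in the model (edgeR), where 13.5% of all genes were called. The adjusted p was 6e-06 for *Junb*, 3.9e-05 for *Fos*, 0.000131 for *Atf3*, 0.000343 for *Dusp1*, 0.00264 for *Egr1* and 0.00384 for *Fosb*. *Ier2* (0.0108), *Jun* (0.0163), *Hspa1a* (0.0280) and *Hspa1b* (0.0300) were nearer to the threshold, and the sum of *Hspa1a* and *Hspa1b* had an adjusted p of 0.0245 in the same edgeR model. The calls of *Fos*, *Junb*, *Egr1*, *Atf3* and *Dusp1* held under 17 of 17 alternatives, those of *Hspa1a* and *Hspa1b* under 7 of 16 each.

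In endothelial cells, 3 of 10 members differed between clusters with the plate in the model, where 5.16% of all genes were called: *Fosb* (adjusted p = 0.000245), *Junb* (0.0332) and *Fos* (0.0445). In immune cells 2 of 10 did, *Junb* (0.0269) and *Jun* (0.0438), where 0.780% of all genes were called. *Fosb* in endothelial cells held under 22 of 22 alternatives, *Fos* under 11 of 22, and in immune cells *Jun* held under 8 and *Junb* under 9 of 15. Epithelial cells gave 0 of 10 by edgeR, where 0% of all genes were called with 1 residual degree of freedom. At an unadjusted p below 0.05 there were 5 of 10 in epithelial cells, and DESeq2 called 8 of 10.

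With the cluster in the model, plates differed for 6 of 10 members in mesenchymal cells, where 9.25% of all genes were called. These were *Hspa1a* (adjusted p = 0.000273), *Fos* (0.000636), *Junb* (0.00267), *Jun* (0.0341), *Hspa1b* (0.0389) and *Atf3* (0.0420), with 0.000481 for the sum of the chaperone genes. *Hspa1a* held under 16 of 16 alternatives, *Junb* under 16 and *Fos* under 15 of 17, but *Jun* under 6 of 17, *Atf3* under 7 of 17 and *Hspa1b* under 6 of 16. *Fos* lost its call without plate liver_705s. In endothelial cells plates differed for 2 of 10, *Fos* (0.0166) and *Fosb* (0.0297), where 2.54% of all genes were called. Immune and epithelial cells each gave 0 of 10, where 0% of all genes were called. At an unadjusted p below 0.05 there were 9 of 10 in immune and 2 of 10 in epithelial cells, and DESeq2 called 6 and 8. All 6 of these mesenchymal members, and *Fos* and *Fosb* in endothelial cells, thus differed both between clusters of a plate and between plates of a cluster.

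The same division was described by the share of the variation in log2(CPM + 1) that was lost when 1 term was removed. In mesenchymal cells, removing the plate cost 40.0% for *Fos* and 43.0% for *Hspa1a*, more than the 19.5 and 18.01% for the cluster. The medians over all genes there were 26.2% for the plate and 20% for the cluster. *Dusp1* showed the opposite, with 14.96% for the plate and 41.3% for the cluster. So did *Atf3* (17.9 and 30.1%), *Ier2* (17.78 and 30.65%), *Jun* (21.82 and 31.06%) and *Egr1* (25.8 and 32.6%). In immune cells the cluster term took 74.2% for *Jun*, 66.0% for *Hspa1a* and 63.8% for *Junb*, against a median of 31.4% over all genes. The plate term there took 57.7% for *Dusp1* and 54.4% for *Atf3*, against a median of 28.5%. In endothelial cells the plate term took 50.01% for *Ier2*, 45.1% for *Jun* and 39.8% for *Fos*, against a median of 37.4%, and 24.5 to 33.6% for the other 7 members. The cluster term there took 38.7% for *Fosb*, against a median of 16.9%. Shares rise with the number of terms and are not tests.

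**Figure D3:**
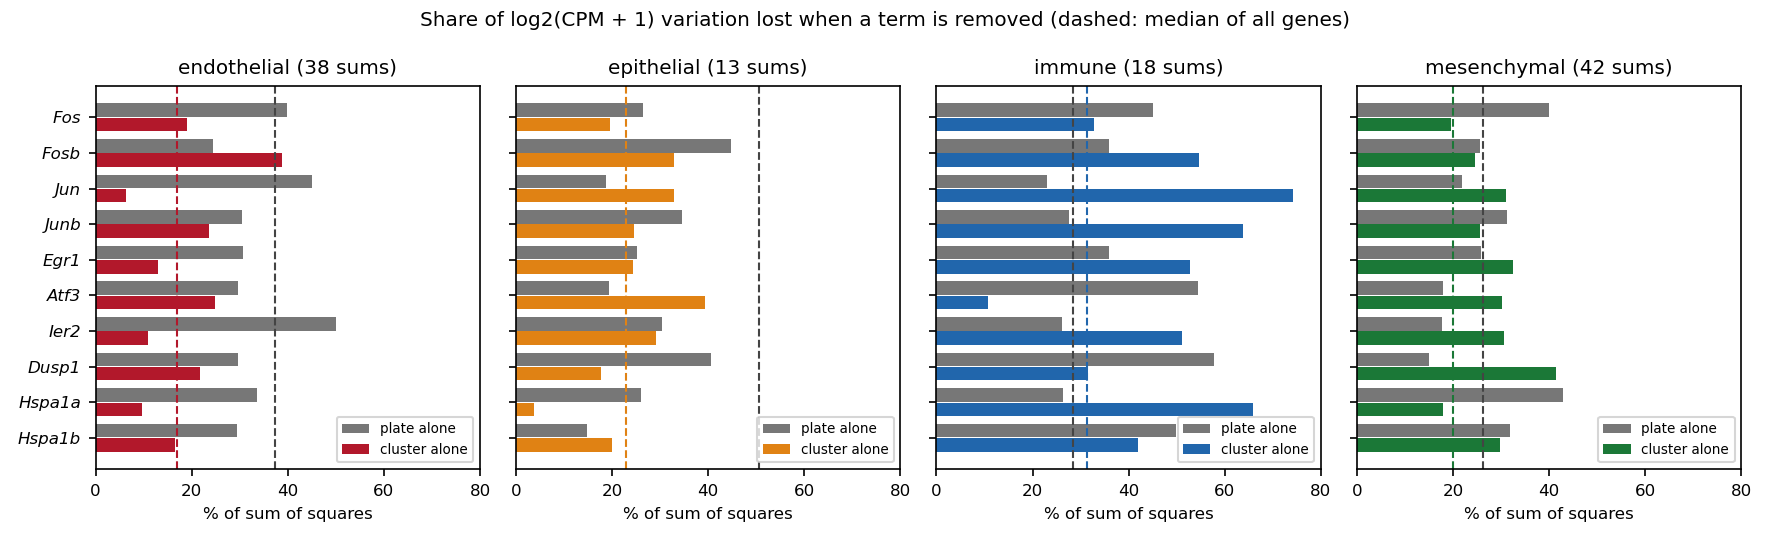
Percent of the sum of squares of log2(CPM + 1) lost when the plate term (grey) or the cluster term (coloured) is removed from the model of plate and cluster, for each member and class. Dashed lines are the medians of all genes. In mesenchymal cells *Fos* and *Hspa1a* lose more with the plate (40.0 and 43.0%), *Dusp1* more with the cluster (41.3%).

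The mesenchymal clusters on the same plates show the cluster effect directly. In arterial smooth muscle #m2, *Fos* was 4363 CPM on plate liver_058s, 5163 CPM on liver_048s, 5323 CPM on liver_319s and 5833 CPM on liver_Rb_573s, and it was the highest cluster on each of these 4 plates. *Atf3* in #m2 was 983, 1825, 2033 and 677 CPM on the same plates, again the highest of all clusters on 4 of 4. *Junb* was the highest there on 4 of 4 plates, and *Fosb*, *Egr1* and *Dusp1* on 3 of 4. Against the other mesenchymal clusters, over pools, 5 of 10 members were higher in #m2, where 8.01% of all genes were called: *Atf3* (log2 fold change 4.37, SE 0.55, adjusted p = 9.58e-05), *Fos* (1.75, SE 0.24, 0.000204), *Fosb* (1.66), *Junb* (1.38) and *Dusp1* (1.08). With the replicate block *Egr1* was called too (1.17, adjusted p = 0.0187). Of 19 alternatives, the call of *Atf3* held under 18, *Fos* under 17, *Junb* under 14, *Dusp1* under 9 and *Fosb* under 8, and in the fit over all classes *Fos* was no longer called without either mesenchymal pool. With the plate as a term, 4 were higher, where 8.36% of all genes were called: *Atf3* (4.04, SE 0.62), *Fos* (1.83), *Egr1* (1.61) and *Junb* (1.56).

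In #m5, with 88 cells annotated as second layer cells (SLC) and 34 as venous smooth muscle, *Fos* was 792 CPM on liver_058s, 598 on liver_048s, 177 on liver_128s, 398 on liver_440s, 0 on liver_705s, 16.2 on liver_Acta2_184s and 431 CPM on liver_Rb_573s. It was the lowest cluster of its plate for *Fos* on 6 of 7 plates and for *Junb* on 7 of 7. Over pools, *Fos* (log2 fold change -1.72) and *Dusp1* (-1.47) were lower in #m5, 2 of 10 where 0.698% of all genes were called, and with the replicate block so were *Fosb* (-2.72, adjusted p = 0.0498) and *Hspa1a* (-1.30, adjusted p = 0.0277). With the plate as a term 7 of 10 were lower, where 1.45% were called: *Fosb* (-2.42), *Fos* (-2.25), *Junb* (-2.10), *Dusp1* (-1.97), *Egr1* (-1.82), *Hspa1a* (-1.81) and *Jun* (-1.48). The stellate cell cluster #m3 had *Fos* at 129 to 1083 CPM on 6 of its 7 plates and at 1.46 CPM on the high spike-in plate liver_705s. Over pools *Hspa1a* (-1.97), *Dusp1* (-1.49) and *Fos* (-1.27) were lower in #m3, 3 of 10 where 2.62% were called, and with the plate as a term *Fosb* (-1.79), *Fos* (-1.46) and *Junb* (-1.41), 3 of 10 where 3.55% were called. *Egr1* was called in #m3 only with the replicate block (-1.62, adjusted p = 0.0329). Stellate cells store vitamin A, and the paper places HSC along the sinusoid and capsular stellate cells (cHSC) below the liver capsule. Cluster #m3 held 113 cells annotated as cHSC, 73 as HSC and 1 as SLC. Over all plates *Fos* was 801 CPM in cHSC and 357 CPM in HSC. Over pools the #m5 and #m3 calls of *Fos* held under 10 and 7 of 19 alternatives and those of *Dusp1* under 10 and 11.

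The chaperones followed another order. *Hspa1a* was the highest in the peribiliary fibroblasts #m4 on each of the 4 plates that held them, with 1201 CPM on liver_058s, 541 CPM on liver_048s, 1275 CPM on liver_440s and 1642 CPM on liver_Rb_573s. In #m2 on liver_058s, liver_048s and liver_Rb_573s it was 814, 153 and 814 CPM, so on plate liver_048s *Hspa1a* was low in both clusters while *Fos* was high in both. On plate liver_048s *Hspa1a* was lower than on liver_058s and lower than on liver_Rb_573s in 5 of 5 shared clusters, whereas *Fos* on liver_048s was higher than on liver_058s in 3 of 5 and than on liver_Rb_573s in 4 of 5. In #m9 over pools *Atf3* (2.59, SE 0.59) and *Fos* (1.02) were higher, 2 of 10 where 4.16% of all genes were called. The #m9 value of *Atf3* rested on the male pool, where plate liver_048s had 970 CPM, against 106 CPM on the female plate liver_058s, and with the male mesenchymal pool left out the log2 fold change was -0.10. With the replicate block *Hspa1a* was higher in #m4 (1.18, adjusted p = 0.00864) and in #m8 (1.69, 0.00737). Without the block no member was called over pools in #m1, #m4, #m6, #m7, #m8 or #m10, where 1.50, 1.81, 3.23, 2.14, 0.899 and 0.322% of all genes were, or with the plate as a term in #m1, #m4, #m6, #m7, #m8, #m9 or #m10, where 1.62, 1.63, 0.813, 2.57, 0.0512, 3.01 and 0.737% were.

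**Figure D4:**
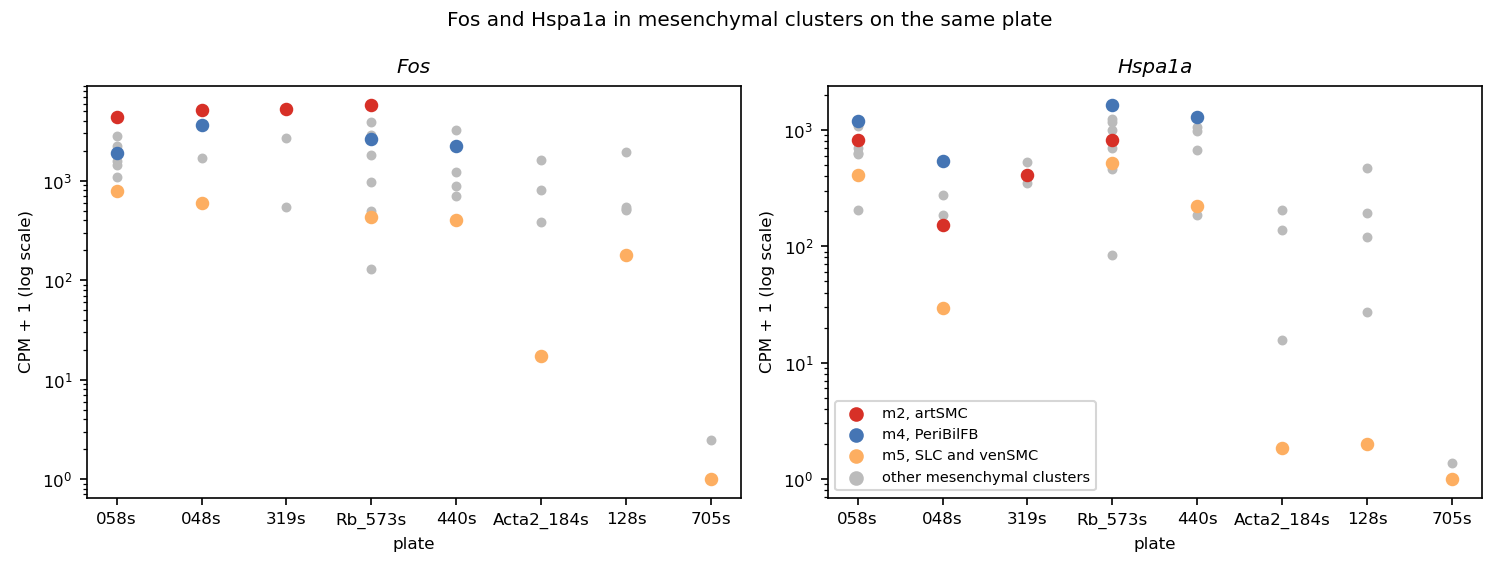
*Fos* (left) and *Hspa1a* (right) as CPM + 1 on a log scale in mesenchymal clusters of at least 5 cells on the 8 plates. Red is #m2, blue is #m4, orange is #m5 and grey are the other clusters. The red points lie on top for *Fos* on all 4 plates that hold #m2, and the blue points on top for *Hspa1a* on all 4 that hold #m4.

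Among epithelial cells the cholangiocytes #p2, which line the bile ducts, stood far above the hepatocyte clusters. On plate liver_128s, which held 163 epithelial cells but only 8 of #p2, *Fos* was 4446 CPM in #p2. It was 208 CPM in #p1, 113 CPM in #p3, 64.2 CPM in #p4 and 45.4 CPM in #p5. On plate liver_319s it was 1345 CPM in #p2 (21 cells) against 61.5 CPM in #p1 (8 cells). These were the only plates with at least 5 cells of both cell types, and #p2 was the highest for *Fos* on both. Over pools, 9 of 10 members were higher in #p2, where 23.6% of all genes were called, with log2 fold changes from 2.21 (*Dusp1*, SE 0.45) to 5.60 (*Fosb*, SE 0.59) and 5.67 (*Hspa1a*, SE 0.60). *Hspa1b* was not called. Only #p2 had a sum of at least 5 cells from both pools (37 female and 157 male cells), so each hepatocyte cluster rested on the male pool alone and the spread came from #p2. The median log2 fold change of all genes in this comparison was 1.36. In the 8 #p2 cells of plate liver_128s *Hspa1a* was 2.65 CPM, while it was 261 to 711 CPM in #p2 on the other 5 plates. The hepatocyte clusters of liver_128s had *Hspa1a* at 1.68 to 5.16 CPM, so #p2 did not stand above them there. On liver_319s it was 311 CPM in #p2 against 10.9 CPM in #p1. Most cells of #p3, #p4 and #p5 came from liver_128s (82.6, 94.9 and 98.2%). The level of *Hspa1a* in the few #p2 cells of liver_128s was thus unlike that of *Fos*. With the plate as a term no member and none of all genes was called (0%), and each of the 9 calls held under all other alternatives that were run. No member was called over pools in #p1, #p3, #p4 or #p5, where 0, 0.198, 0 and 0% of all genes were.

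In endothelial cells the central vein cluster #e7 was low. *Fos* in #e7 was 9.49 CPM on liver_845s, 49.8 on liver_704s, 2.58 on liver_708s, 1379 on liver_EC_170s, 10.7 on liver_EC_173s and 0 CPM on Liver_EC_174s. Plate liver_EC_170s, with 7 #e7 cells, stood apart. Its #e1 cells (10 cells, also of central vein) had 2700 CPM and its #e8 cells (14 cells) 4129 CPM, each the highest of the cluster. Its #e2 cells (6 cells) had 446 CPM, below the #e2 plate median of 707 CPM. Its immune #i5 cells (6 cells) had *Fos* at 13.3 CPM, the lowest of that cluster. The summed level of the 8 immediate early members in these #i5 cells was 4707 CPM, however, the highest of that cluster. In #e2 of this plate the summed level was 3220 CPM, below the #e2 plate median of 4495 CPM. The high *Fos* level thus did not hold in every cluster of this plate. Over pools, 4 of 10 members were lower in #e7, where 3.66% of all genes were called: *Fos* (log2 fold change -4.07, SE 1.02, adjusted p = 0.0392), *Hspa1a* (-3.62, SE 0.73), *Junb* (-3.33, SE 0.68) and *Jun* (-2.53, SE 0.59). With the plate as a term none of the 10 was called in #e7, where 1.83% of all genes were. Without the 4 plates of high spike-in share *Hspa1a* (-3.81, adjusted p = 0.0125) and *Junb* (-3.43, 0.0125) were called, and *Fos* (-3.22, 0.124) and *Jun* (-2.03, 0.0918) were not. *Hspa1b* was higher in the sinusoidal cluster #e3 (3.02, SE 0.66, 1 of 10 where 2.20% were called), at 111 CPM on liver_318s and 107 CPM on liver_319s, and #e3 was found mainly on liver_318s (81.4% of its cells). On liver_318s *Hspa1b* was nearly as high in other sinusoidal cells, at 107 CPM in #e6 (7 cells) and 82.3 CPM in #e5 (38 cells). It was 21.7 CPM in #e1 and 26.2 CPM in #e2 there, and 35.3 CPM in #e5 on liver_319s. The sum of *Hspa1a* and *Hspa1b* was not called in #e3 (1.31, adjusted p = 0.126). With the plate as a term *Fosb* was higher in the lymphatic cluster #e4 (5.89, 1 of 10 where 1.31% of all genes were called) and lower in the sinusoidal cluster #e5 (-5.68, 1 of 10 where 1.14% were called). The value in #e4 came from 1 sum of 12 cells on liver_845s. With the replicate block over pools, *Fosb* in #e4 (4.13, adjusted p = 0.0224, from pools of 13 and 9 cells), *Atf3* in #e2 (3.33, 0.00768) and *Atf3* in #e7 (-5.90, 0.0499) were called. Without the block no member was called in #e1, #e2, #e4, #e5, #e6 or #e8 over pools, where 2.28, 2.54, 5.27, 1.09, 0.420 and 1.30% of all genes were, or in #e1, #e2, #e3, #e6 or #e8 with the plate as a term, where 1.84, 1.57, 0, 0.309 and 0.127% were. In the portal vein cluster #e2, *Atf3* and *Ier2* were each the highest of their plate on 6 of 8 plates. This cluster held 114 cells annotated as portal vein and 14 as peribiliary vasculature. Over all plates *Atf3* was 174 CPM in the portal vein and 296 CPM in the peribiliary cells, and *Ier2* 490 and 1008 CPM.

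Among immune cells the Kupffer cell cluster #i1, a resident macrophage population, was the lowest in the summed level on 4 of 4 plates. On liver_704s and liver_708s it was compared only with #i2, mostly monocytes, and with the B cells #i5. On liver_057s #i1 had 5 cells, and on liver_319s the only other Kupffer sum was #i3 with 9 cells. *Fos* in #i1 was 470 CPM on liver_057s, 558 CPM on liver_319s, 3.40 CPM on liver_704s and 1.48 CPM on liver_708s. Over pools *Jun* (log2 fold change -3.35, SE 0.62), *Junb* (-2.58) and *Hspa1a* (-2.51) were lower, 3 of 10 where 2.71% of all genes were called, and the same 3 were lower with the plate as a term (-5.45, -3.29 and -4.01, where 0.883% were called). Without the plates of high spike-in share *Jun* (-2.30, adjusted p = 0.0188) and *Junb* (-1.80, 0.0203) were called and *Hspa1a* (-1.65, 0.192) was not. Kupffer cluster #i3 had 5 members higher over pools, where 3.89% of all genes were called: *Egr1* (2.45), *Jun* (2.10), *Hspa1a* (1.97), *Fos* (1.47) and *Junb* (1.44). With the replicate block *Egr1* (1.19, adjusted p = 0.892), *Hspa1a* (1.56, 0.239) and *Junb* (1.18, 0.122) were not called. None of these was called with the plate as a term, and *Fos* (-0.45) and *Hspa1a* (-0.20) turned direction. *Fos* in #i3 was 3127 CPM on liver_319s but 1025 CPM on liver_057s and 259 CPM on liver_062s, and without the male immune pool *Egr1* in #i3 was -0.38. Cluster #i4 held 24 cells annotated as cycling and 24 as contaminated, in the paper Kupffer cells with endothelial transcripts. *Fosb* (2.97) and *Egr1* (1.94) were higher there over pools, 2 of 10 where 7.15% were called, and *Fosb* was -0.18 with the plate as a term. With the replicate block neither was called (*Fosb* 1.97, adjusted p = 0.545 and *Egr1* 1.67, adjusted p = 0.257). The highest single #i4 cell had 1518 *Fosb* counts. On the 2 plates with at least 5 #i4 cells *Fosb* was 20.1 and 24.8 CPM, against 157 CPM over the cluster. For *Egr1* the highest cell had 2270 counts, and the plates 58.3 and 153 CPM against 255 CPM. Cells labelled contaminated had *Fosb* at 309 and *Egr1* at 567 CPM, cycling cells 40.7 and 18.8 CPM. No member was called in #i2, #i5, #i6 or #i7 over pools, where 4.84, 7.45, 0.671 and 0.383% of all genes were, or in #i2 to #i7 with the plate as a term, where 0, 0, 0.00541, 0.509, 0 and 0% were.

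**Figure D5:**
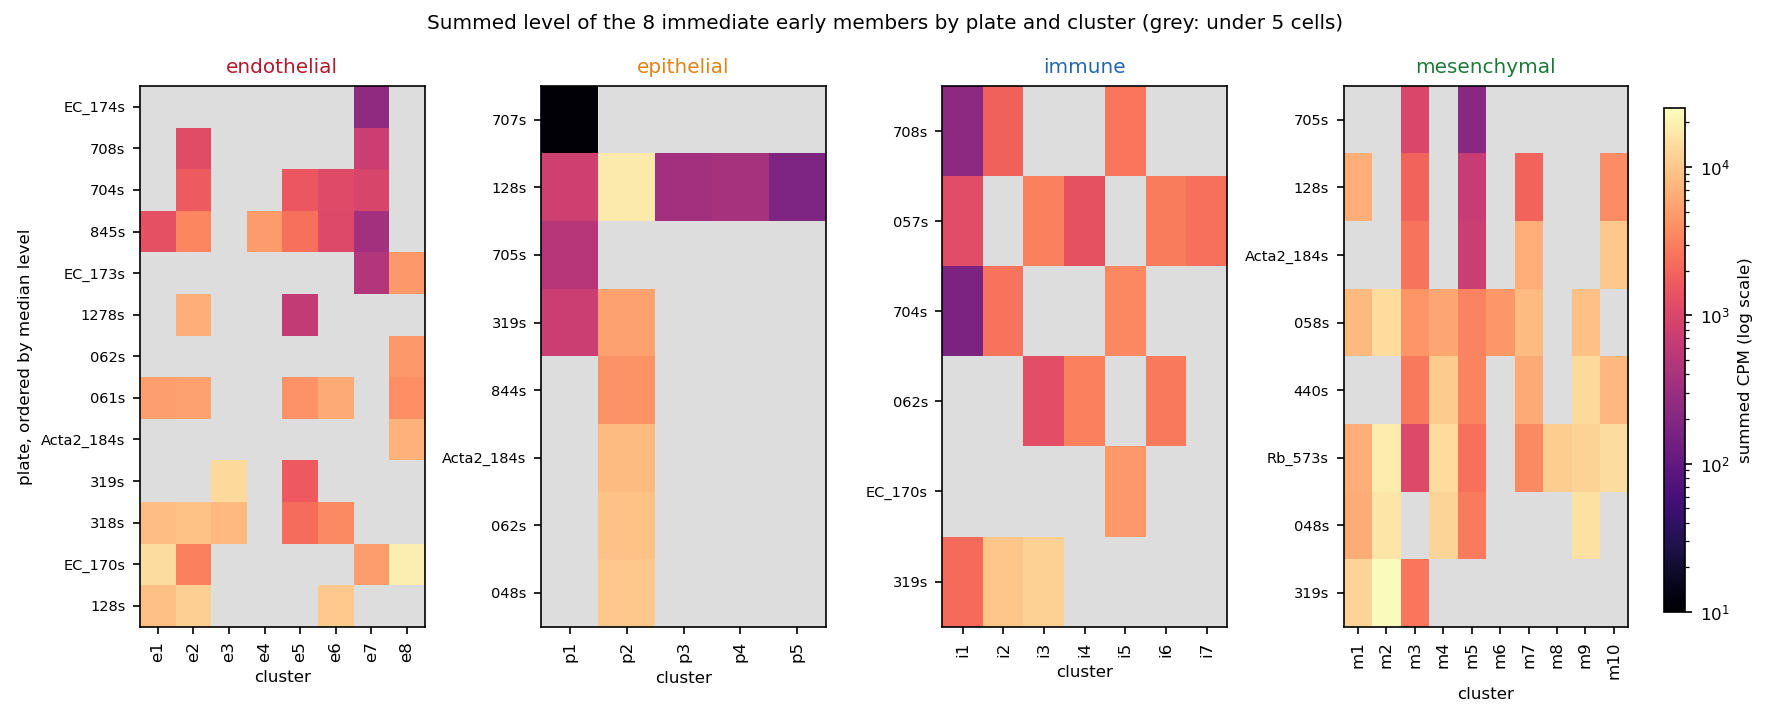
Summed CPM of the 8 immediate early members (colour, log scale) on each plate (rows, ordered by median within a class) in each cluster (columns). Grey marks fewer than 5 cells. Plates differ within columns, and #m2 is the brightest of its plate on all 4 plates that hold it.

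Within groups of cells of 1 cluster on 1 plate, where neither plate nor cluster can differ, the members still varied together. Over 3278 cells in 111 groups, after the group means were subtracted, the median Pearson r of log2(CPM + 1) over 28 pairs of immediate early members was 0.317, from 0.180 to 0.495 (*Fos* and *Junb*). It was 0.488 in epithelial, 0.366 in mesenchymal, 0.266 in endothelial and 0.248 in immune cells. Pairs of an immediate early member with *Hspa1a* or *Hspa1b* had a median of 0.179, and *Hspa1a* with *Hspa1b* 0.379, with shared reads. Correlations with the log total count were 0.0509 to 0.129. These r describe cells that share libraries and are given without a p.

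Across 104 plate and cluster sums, after each cluster mean was subtracted, the genes most like the mean of the 8 immediate early members were *Junos* (r = 0.781), *Zfp36* (0.724), *Btg2* (0.703), *Socs3* (0.691) and *Ccn1* (0.680). Those most like *Hspa1a* and *Hspa1b* added were *Gm20481* (0.972), *Junos* (0.689), *Ppp1r15a* (0.663), *Gadd45g* (0.630) and *Btg2* (0.599). *Junos* is antisense to *Jun*, with 232 shared exonic bases, and *Gm20481* to *Hspa1a*, with 564. The library type marks no strand, so reads in these overlaps cannot be told apart.

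Other immediate early genes from a list of 50 were read in the same comparisons. Of 48 tested, 15 were higher and 2 lower in mesenchymal cells against the other classes, with a median log2 fold change of 1.05 against 0.02 over all genes, where 14.7% of all genes were called in either direction, led by *Npas4* (9.14), *Fosl1* (5.79), *Ptgs2* (5.51) and *Arc* (4.31). It was 4 higher and 5 lower in endothelial (12% of all genes), 3 and 7 in epithelial (15.3%) and 3 and 5 in immune cells (16.9%). In #m2, 20 of 48 were higher, where 8.01% of all genes were called, led by *Npas4* (6.92), *Nr4a2* (6.01), *Csrnp1* (4.36) and *Nr4a3* (4.19). In #p2, 24 of 41 were higher and 2 lower, where 23.6% were called, with a median log2 fold change of 3.64 against 1.36 over all genes. With the plate in the model, 24 of 48 differed between mesenchymal clusters, where 13.5% of all genes did, and 11 between plates, where 9.25% did.

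Of 20 other heat shock genes, 1 (*Hspb1*, 2.74) was higher in mesenchymal cells, 1 (*Hspb1*, 1.86) in endothelial and 4 in epithelial cells (*Fkbp4* 1.91, *Hspa9* 1.71, *Hspb1* 1.70 and *Hspd1* 1.57), and 1 (*Hspb1*, -6.30) was lower in immune cells. Over all genes 15.3% were called in epithelial cells, near the 4 of 20 here, and the counts in the other classes lay below their shares. In #p2 none was higher and 4 were lower, where 23.6% of all genes were called in either direction, a share near these 4 of 20. *Hspa1a* was higher in #p2 over pools. On plate liver_128s, however, it was 2.65 CPM in #p2 and 1.68 to 5.16 CPM in the hepatocyte clusters. Between mesenchymal clusters 3 of 20 differed with the plate in the model (*Hspb1*, *Hspa8* and *Hsp90b1*), and 3 between plates, where 13.5 and 9.25% of all genes did. Among 14 tested upstream regulators, 1 (*Hsf2*, a heat shock factor) differed between mesenchymal clusters and 2 between plates, against the same 13.5 and 9.25% of all genes.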

How the data were processed

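Single liver cells were sequenced with Smart-seq2 (50-base single reads). The labels name bcl2fastq, Bowtie, Bowtie2, Subread, featureCounts and Seurat, without roles. The genome build and any removal of duplicate reads are not given in the sources used here. The deposited values are raw counts per gene and cell, and the authors' cell classes, plates, annotations and clusters were used as deposited. The members, lists and tests were chosen with earlier results of these data known. Here the 92 spike-in rows were left out, counts were summed per class and pool, cluster and pool, or plate and cluster (at least 5 cells), and CPM was computed from the sums. Sums were tested with edgeR (version 4.0.16, TMM, filterByExpr, quasi-likelihood F test) and Benjamini-Hochberg adjustment over all genes tested, with DESeq2 (version 1.42.0) as an alternative. P-values measure the spread between pools or plate sums, which are not known to be separate mice. The tests were checked on simulated counts. Deviations of same-numbered pools from their class means correlated in all 6 class pairs (r 0.112 to 0.202), and classes shared plates, so the pool was used as a block in an alternative. All 10 members are named, other listed genes by the largest called changes, up to 4 per list and comparison, and likeness by the 5 highest r. Intervals and upper limits cover counting error only.

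*Fos*, *Junb*, *Jun*, *Ier2* and *Atf3* counts per cell reached 43.1 to 62.3% of the read start positions of their transcripts in the highest cell, against a median of 6.91% over 16416 genes. The effect of this on the highest values was not tested.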

Additional observations from a re-analysis of the deposited data

How the results depend on the processing

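In the class comparison the count of calls, 0 of 40, moved to 1 with DESeq2, to 1 on class and plate sums with the plate as a term and to 3 without plate liver_845s. Leaving out 1 pool gave 0 to 6 calls, with 6 without the male endothelial pool and 3 each without the female endothelial and the male immune pool. With the pool as a replicate block it was 2, and the pool numbers paired the samples. The sex comparison stayed at 0 under every alternative run, with 0 calls also where no replicate block of class was used. Clusters given plate gave 15 calls, 26 with DESeq2, 14 with the earlier dispersion method of edgeR and 11 to 16 over left-out plates. Plates given cluster gave 8 calls, 29 with DESeq2, 9 with that method, 13 after thinning, 5 without the filter, 3 with at least 10 cells per sum and 4 without the 4 plates of high spike-in share. Leaving out 1 plate gave 4 to 9, with 4 without liver_128s and 5 each without liver_048s, liver_705s, liver_058s and liver_440s. Single clusters gave 36 calls, 61 with the 49 community clusters, 19 with the plate as a term, 35 with that method and 31 with the replicate block, which could be run in 3 classes, where the fit without it gave 27. The block added 9 calls and removed 5, each given beside the results, and changed no other call of these. One fit over all classes gave 24, and leaving out 1 pool in that fit gave 13 to 27, with the lowest counts without the male epithelial (13), the female mesenchymal (15) and the male mesenchymal pool (16). The cause of these shifts was not tested.

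The following single values turned direction: *Jun* in epithelial cells (-0.17), *Fos* (-0.45) and *Hspa1a* (-0.20) in #i3 and *Fosb* in #i4 (-0.18) with the plate as a term, *Egr1* in #i3 without the male immune pool (-0.38, range over left-out pools to 2.47) and *Atf3* in #m9 without the male mesenchymal pool (-0.10, range to 3.78). Epithelial cells could not be fitted at 10 cells per sum, without plate liver_128s or liver_319s, or with the block. The settings without high spike-in plates, without liver_845s, with all classes in 1 fit and with the earlier dispersion method were chosen after the data were seen. Pools number 2 per class and plates are not mice, which limits every class and sex test, and the epithelial model of plate and cluster had 1 residual degree of freedom.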
